A study of Mus musculus with 24 samples.

Results

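Spp1 encodes osteopontin, a secreted phosphoprotein of bone matrix that lymphocytes and macrophages also make, and it is 1 gene of the 45237 listed for bulk RNA-seq of mouse splenic NK cells. It was found by its gene name and had been selected on its raw counts in all 24 libraries and on their relation to Mki67, the gene of the proliferation marker Ki67, so its levels and that relation are given as a description, with no test. The study asked how NK cells change while a lymphoma grows that they can or cannot recognize. NK cells were sorted as live cells positive for NKp46 and NK1.1 and negative for CD3, CD5 and TCR from spleens of female WT C57BL/6J mice. The control group came from untreated mice without tumor cells (n = 4). The RMA groups came from mice injected intravenously with RMA, a T cell lymphoma line, and were taken early (day 2, n = 3), at an intermediate time (day 4, n = 3) and late (day 9, n = 3). The RMA-KR groups came from mice injected with RMA-KR, 1 clone of RMA made to lack B2m, hence surface MHC class I, and to carry Rae1-β, a ligand of the activating receptor NKG2D, and were taken early (day 2, n = 3), at an intermediate time (day 7, n = 5) and late (day 14, n = 3). Stages of the same name therefore lie on different days in the RMA and RMA-KR courses. Libraries held between 5138651 and 14863500 counts, with a median of 10489204.

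Osteopontin binds integrins of the alpha v, alpha 4, alpha 5, alpha 8 and alpha 9 classes, through an RGD motif or a cryptic site that thrombin uncovers, and it also binds CD44. It acts as a cytokine on lymphocyte and macrophage migration, adhesion and survival, and a form kept inside the cell has been tied to innate sensing and to the expansion of NK cells under IL-15. In T cells the factor T-bet, encoded by Tbx21, drives its transcription. Ki67 is a protein of dividing cells, and its mRNA rises and falls with the cell cycle.

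Spp1 lies on the plus strand of chromosome 5 in mm10 (chr5:104435118-104441050), with a median transcript length of 1410 bases, and Mki67 on the minus strand of chromosome 7 (chr7:135689784-135716361), with 5318 bases. The 250 bases before the upstream start of each gene in the RefSeq promoter table (GRCm38.p6) are shown because the RNA levels of these 2 genes are compared throughout. Capitals mark matches, on either strand, to the letters of 10 motifs: the TATA box (TATAAA), the CCAAT box (CCAAT), the AP-1 motif (TGANTCA), the RUNX motif (TGTGGT), the T-box motif (GGTGTGA), the E-box of Myc (CACGTG), the GC box (GGGCGG), the cell cycle homology region (TTTGAA), the E2F motif (GCGGGAA) and a nuclear receptor site (AGGTCA). The Spp1 window is chr5:104434861-104435110 on the plus strand, and the Mki67 window is chr7:135716380-135716629 on the minus strand.
Spp1: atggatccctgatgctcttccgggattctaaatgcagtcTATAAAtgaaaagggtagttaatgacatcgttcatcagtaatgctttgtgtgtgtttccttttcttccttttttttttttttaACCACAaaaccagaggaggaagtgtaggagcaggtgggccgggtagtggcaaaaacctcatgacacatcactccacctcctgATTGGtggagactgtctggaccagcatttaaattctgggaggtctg
Mki67: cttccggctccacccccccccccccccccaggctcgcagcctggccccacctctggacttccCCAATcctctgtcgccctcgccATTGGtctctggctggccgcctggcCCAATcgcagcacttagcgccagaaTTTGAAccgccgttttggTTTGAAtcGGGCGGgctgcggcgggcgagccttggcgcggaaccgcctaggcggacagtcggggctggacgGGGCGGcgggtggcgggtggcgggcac
The Spp1 window held the TATA box letters from -211, the RUNX letters on the opposite strand from -128 and the CCAAT letters on the opposite strand from -46, counted back from the start. The Mki67 window held the CCAAT letters 3 times, those of the GC box 2 times and those of the cell cycle homology region 2 times, from -116 and from -98. Among 32851 promoters of the same length, the CCAAT letters were found in 33.8%, the GC box in 32.7%, the cell cycle homology region in 16.0%, the RUNX letters in 14.0% and the TATA box in 12.4%. The other motifs had no match in either window, and were found in 6.75% (AP-1), 3.33% (T-box), 6.02% (E-box), 3.82% (E2F) and 14.0% (nuclear receptor) of promoters. A window before a further Spp1 start in the table (chr5:104435942-104436191, plus strand) held the letters of the cell cycle homology region from -216 as its single match. A match is a description of these letters and shows no binding.

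Spp1 mRNA was low in NK cells of control mice, near control level on day 2, and higher in every library of the intermediate and late groups. In control NK cells it stood at 16.3, 10.5, 24.1 and 5.89 normalized CPM, the count scaled to the library's total after TMM normalization, from raw counts of 88, 109, 229 and 66. In NK cells of RMA-bearing mice on day 2 it was 1.60, 44.5 and 18.1 CPM, and in those of RMA-KR-bearing mice on day 2 it was 16.0, 32.5 and 15.8 CPM. These 2 early groups overlapped with control and with each other, and the RMA early group held both the lowest library of the 24, at 12 counts, and 1 library above every control.

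In the RMA course, Spp1 reached 131, 208 and 218 CPM on day 4, from 1489, 2117 and 1906 counts, and 526, 395 and 236 CPM on day 9, from 6120, 4248 and 2247 counts. In the RMA-KR course it was 86.0, 49.0, 64.5, 46.9 and 103 CPM on day 7 and 533, 548 and 327 CPM on day 14, the latter from 5984, 7798 and 3392 counts. Each of the 5 RMA-KR libraries of day 7 stood above all controls and all day 2 libraries, and below all RMA libraries of day 4. In bulk libraries, more cells with Spp1 and more Spp1 RNA per cell cannot be told apart.

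**Figure D1:**
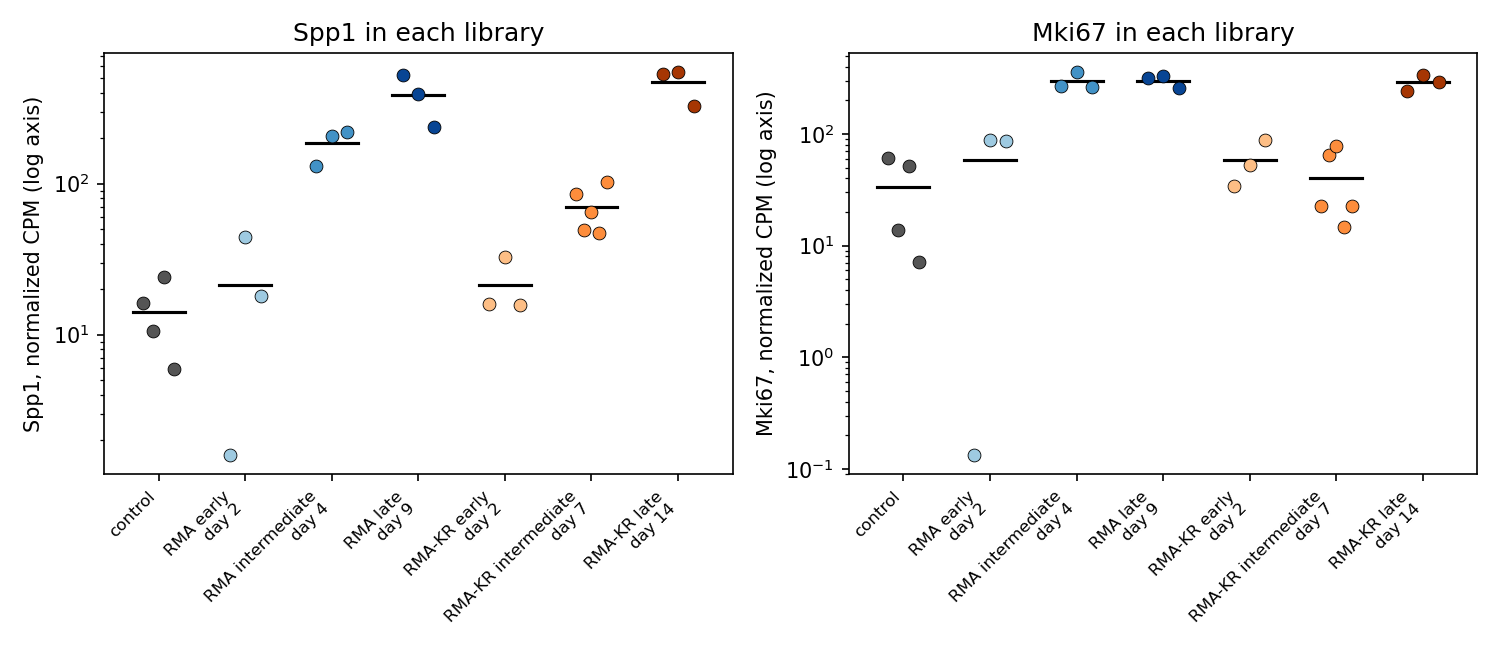
Normalized CPM of Spp1 (left) and Mki67 (right) on log axes, with 1 point per library, a bar at the group mean and the day after injection under each group. The 5 RMA-KR intermediate libraries lie between 46.9 and 103 CPM for Spp1, above all control and early libraries, while their Mki67, between 14.8 and 77.3 CPM, lies among them.

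Ordered by mean ± SD, the groups were control (14.2 ± 7.86 CPM, n = 4), RMA-KR early (21.4 ± 9.59, n = 3), RMA early (21.4 ± 21.7, n = 3), RMA-KR intermediate (69.8 ± 24.2, n = 5), RMA intermediate (186 ± 47.5, n = 3), RMA late (386 ± 145, n = 3) and RMA-KR late (469.2 ± 123.5, n = 3). Control and both early groups did not differ beyond their SD, and neither did RMA late and RMA-KR late. The steps from RMA early to RMA-KR intermediate, on to RMA intermediate and on to RMA late each exceeded the larger SD, with no overlap between the neighbours. The fitted log2 fold change against control was 0.61 (SE 0.58) in RMA early, 0.60 (SE 0.58) in RMA-KR early, 3.72 (SE 0.60) in RMA intermediate, 2.30 (SE 0.54) in RMA-KR intermediate, 4.77 (SE 0.63) in RMA late and 5.05 (SE 0.63) in RMA-KR late. The direction in RMA early depended on 1 library: without RMA early 2, at 44.5 CPM, the value was -0.49, and without RMA early 1, at 1.60 CPM, it was 1.17. Late RMA against late RMA-KR gave -0.28 (SE 0.60), less than its standard error.

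On a scale per length, as the mean normalized CPM per kilobase of transcript, Spp1 went from 10.1 in control to 333 in RMA-KR late. That moved its level from place 7415 of the 17097 tested genes in control to place 3445 in RMA-KR intermediate, 1519 in RMA intermediate, 636 in RMA late and 482 in RMA-KR late. On the same scale, Ifng, the gene of interferon gamma, stood at 308 in control and 533 in RMA-KR late, and Csf2, the gene of GM-CSF, at 1.67 and 4.59. By this level per kilobase, Spp1 stood below Ifng and above Csf2 in every group. The chemokine gene Ccl5 was above both by the same scale, at 5854 in control and 6658 in RMA-KR late.

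Mki67 followed another course. It was at 60.8, 13.7, 51.4 and 7.05 CPM in control, 0.133, 87.5 and 86.9 in RMA early, 34.3, 52.8 and 88.0 in RMA-KR early, and 22.8, 65.2, 77.3, 14.8 and 22.4 in RMA-KR intermediate. It was at 267, 358 and 266 CPM in RMA intermediate, 314, 328 and 261 in RMA late, and 243, 334 and 290 in RMA-KR late. The libraries thus fell into 2 sets with nothing between 88.0 and 243 CPM: 15 low in Mki67 (control, both early groups and RMA-KR intermediate) and 9 high (the other 3 groups). Within each set, Spp1 still differed between groups. In the low set, RMA-KR intermediate held the highest 5 Spp1 values. In the high set, the RMA intermediate and late groups overlapped in Mki67, while their Spp1 ranges, 131 to 218 and 236 to 526 CPM, did not.

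Within the 15 libraries low in Mki67, log2 CPM of Spp1 and of Mki67 had a Pearson r of 0.66 and a Spearman rho of 0.27, and without RMA early 1 r was 0.24 and rho 0.10 over the other 14. Within the 10 of them from control and early groups, r was 0.93 and rho 0.65, and without RMA early 1 r was 0.79 and rho 0.52 over 9. Among the 9 libraries high in Mki67, r was 0.19 and rho 0.050. Over all 24 libraries, which share groups, control mice and a normalization, r was 0.84 and rho 0.77, a value that spans the gap between the 2 sets. Without the 2 libraries farthest from the median of Mki67, RMA early 1 and control 4, r over the other 22 was 0.75. Leaving out the RMA-KR intermediate group gave an r of 0.89 over 19 libraries. Over deviations from the group means, r was 0.81 and rho 0.54 with all 24 libraries, and r was 0.39 and rho 0.29 without RMA early 1, in which Mki67 had 1 count and Spp1 had 12. The size of r over deviations therefore rested on that library.

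**Figure D2:**
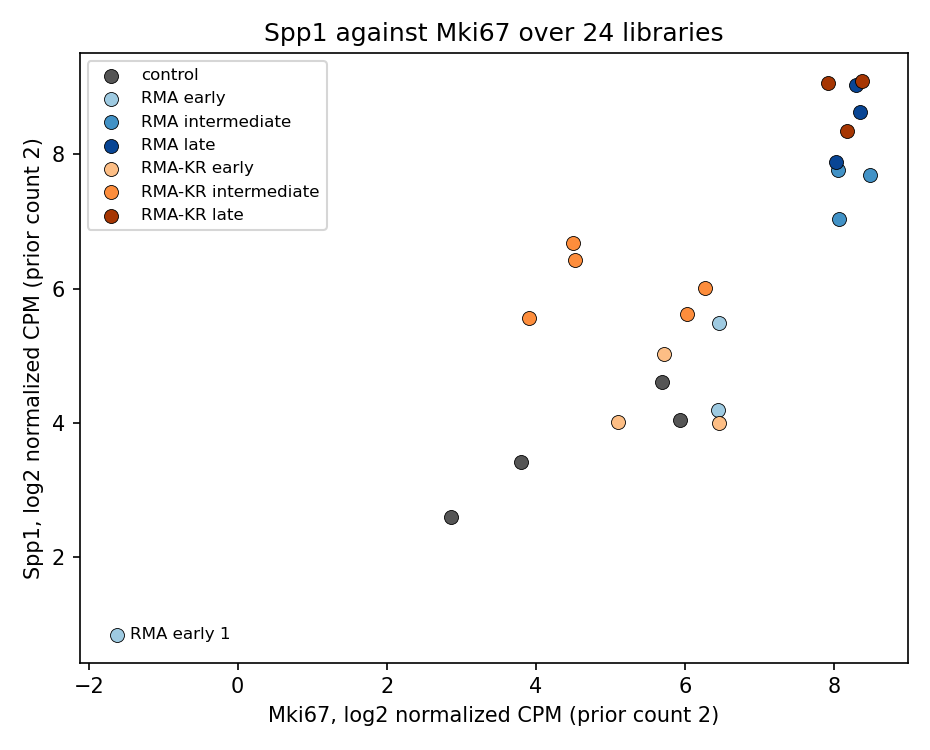
Log2 normalized CPM of Spp1 against Mki67, 1 point per library, colored by group. The 9 libraries at the upper right are RMA intermediate and both late groups, the RMA-KR intermediate libraries lie above the control and early libraries at like Mki67, and RMA early 1 lies alone at the lower left.

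The proliferation list held 34 genes of DNA replication and mitosis besides Mki67. Spp1 had been selected on its relation to Mki67, so its relation to genes that move with Mki67 is not independent of that choice. A gene was called where edgeR's quasi-likelihood test over 17097 genes gave a Benjamini-Hochberg adjusted p below 0.05 together with a change of more than 2-fold. By this rule 28 of 34 were higher in RMA intermediate, against 1.65% of all genes called, 24 of 34 in RMA late, against 1.79%, and 21 of 34 in RMA-KR late, against 0.983%. None was lower. In RMA-KR intermediate 0 of 34 were called, against 0.0175% of all genes; 9 had an unadjusted p under 0.05, and DESeq2 called 1. The list's median log2 fold change was 3.52 in RMA intermediate, 3.57 in RMA late, 3.12 in RMA-KR late and 0.82 in RMA-KR intermediate, with medians over all tested genes of -0.29, -0.18, -0.18 and 0.01. On day 2 it was 0.79 in RMA early and 0.88 in RMA-KR early, close to that of RMA-KR intermediate, with medians over all tested genes of -0.06 and 0.00. Without 4 libraries described further on, the list's median was 0.27 in RMA-KR intermediate, 0.64 in RMA early and 0.69 in RMA-KR early. That fit called 10 of 34 in RMA-KR late, where it called 84 of all 17958 genes. The 34 genes summed to 1970, 2203, 4661, 2489 and 3765 CPM in RMA-KR intermediate, above the 1346 to 1803 CPM in control. On day 2 they summed to 1263, 3307 and 2867 CPM in RMA early and to 1698, 1968 and 1906 CPM in RMA-KR early, so the sum of RMA-KR intermediate overlapped with RMA early, where Spp1 did not. At day 2, 0 of 34 were called in either course, against 0% of all genes in RMA early and 0.0819% in RMA-KR early; in each, 9 had an unadjusted p under 0.05, and DESeq2 called 1. In the comparison of RMA late with RMA-KR late 0 of 34 were called, against 0% of all genes, with 1 at an unadjusted p under 0.05 and 0 in DESeq2.

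The 3 genes called in RMA-KR intermediate were Serpine2, Tnfrsf9 and Pim2, named here after their values were seen. Serpine2, an inhibitor of serine proteases, was at 54.6, 40.5, 62.1, 27.6 and 77.9 CPM there and between 1.70 and 13.6 CPM in control, a difference of 2.72 log2 units (SE 0.44; adjusted p = 0.0337 in edgeR). Tnfrsf9, the receptor 4-1BB, differed by 1.63 log2 units (SE 0.28; adjusted p = 0.0377 in edgeR), and Pim2, a survival kinase, by 1.46 (SE 0.24; adjusted p = 0.0337). These calls depended on the libraries fitted: 0 genes were called without 4 libraries described further on, with 874 at an unadjusted p under 0.05, while DESeq2 called 21 with all libraries.

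**Figure D3:**
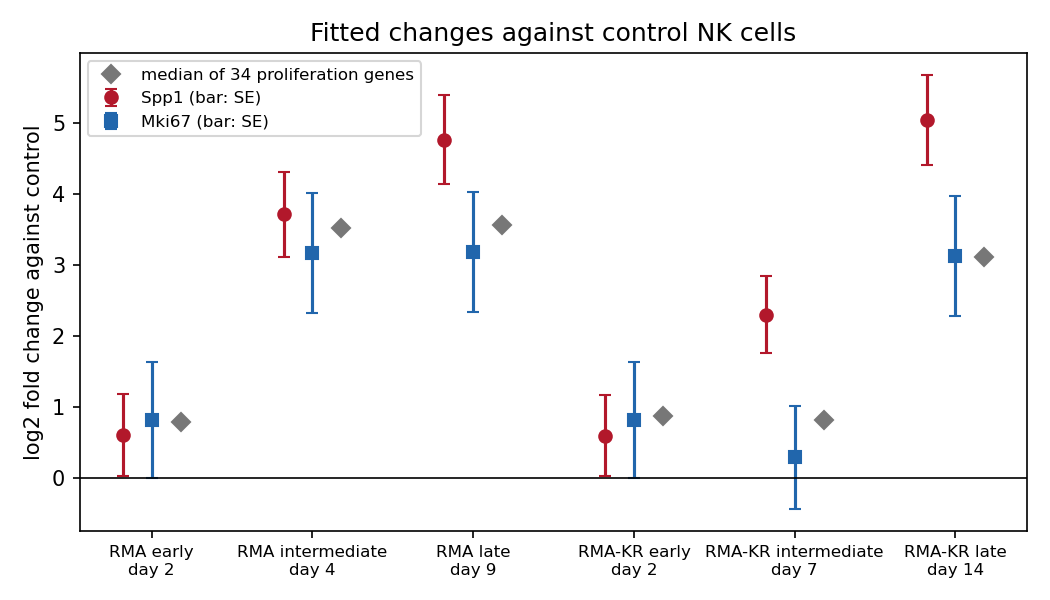
Fitted log2 fold change against control of Spp1 (circles) and Mki67 (squares), with bars of 1 SE, and the median over 34 proliferation genes (diamonds), by group. Spp1 lies at 2.30 in RMA-KR intermediate, where Mki67 lies at 0.29, and in both late groups it lies above Mki67.

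Among the 10 genes most like Spp1 over the 24 libraries, by Pearson r on log2 CPM, were Tk1 (r = 0.91), Tigit (0.91), Ldha (0.90), Cnp (0.89), Cdca3 (0.89), Ncapg (0.89), Ywhah (0.89), Prc1 (0.88) and E2f2 (0.88). Tk1, thymidine kinase of S phase, is the single member of the proliferation list among them, while Cdca3, Ncapg, Prc1 and E2f2 are genes of the cell cycle and mitosis outside that list, and Mki67 was in place 67 of 17096. Tigit, an inhibitory receptor of NK and T cells, was at 252, 329 and 334 CPM in RMA intermediate, 383, 284 and 511 in RMA late and 1274, 391 and 484 in RMA-KR late, above its 61.2 to 128 CPM in control. Unlike Spp1, it overlapped with control in RMA-KR intermediate, at 103, 105, 129, 120 and 155 CPM. Across all other genes, r with Spp1 had a median of -0.082 and quartiles of -0.30 and 0.19. The lowest was -0.91, for Phf1. Over deviations from the group means, the 10 highest were Spc25 (0.90), Rnf34 (0.89), Kif23 (0.89), Fkbp8 (0.89), Gypc (0.88), Brca1 (0.87), Cdca3 (0.87), Prpf38a (0.86), Atg7 (0.86) and Vav2 (0.86). Cdca3 alone was in both sets of 10. Without RMA early 1, the values of these 10 lay between 0.55 and 0.78.

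**Figure D4:**
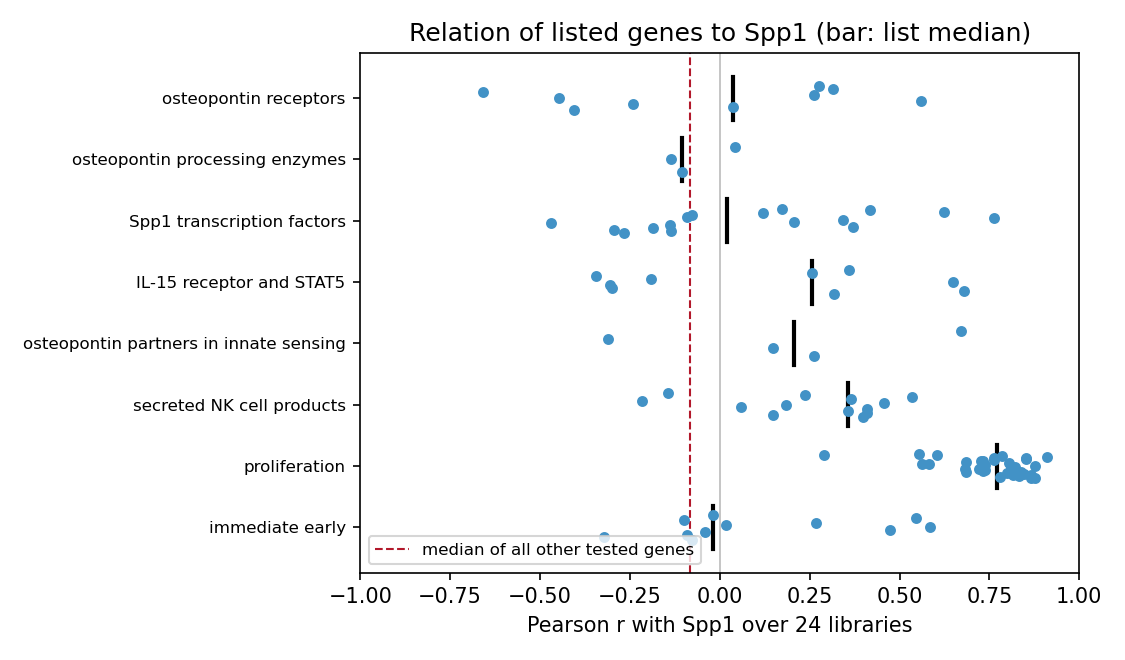
Pearson r with Spp1 over 24 libraries for each tested gene of the pathway lists, Spp1 and Mki67 left out, with a bar at each list's median and a dashed line at the median of all other tested genes, -0.082. The 34 proliferation genes lie between 0.29 and 0.91, with a median of 0.77. Over deviations from the group means, not drawn here, their median was 0.52.

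Of the 12 listed genes for osteopontin receptors, 9 passed the filter on low counts. Cd44, the hyaluronan receptor gene, stood at 436 to 548 CPM in control, and the most abundant by CPM was Itgb7, an integrin beta chain, at 1056 to 2021 CPM over all libraries. In RMA-KR late 1 of 9 was called, against 0.983% of all genes, namely Itgb3, which encodes the beta 3 chain that pairs with alpha v. Itgb3 stood at 5.17, 1.35, 7.48 and 25.6 CPM in control and at 64.9, 60.1 and 133 CPM in RMA-KR late, with no overlap, a difference of 3.10 log2 units (SE 0.78; adjusted p = 0.0496 in edgeR). That call was lost in 6 of 7 fits that left out 1 library, where the adjusted p ran from 0.0248 to 0.161. In the other comparisons, where 0% to 1.79% of all genes were called, 0 of 9 were called by the main edgeR fit or DESeq2, and from 0 to 4 had an unadjusted p under 0.05. Other edgeR fits did call Itgb3 there: in RMA intermediate and RMA late without the 4 libraries described further on, with the replicate number as a block and with no filter on low counts, and with no filter in RMA-KR intermediate as well. The median of the 9 in RMA-KR late was -0.28, against -0.18 for all tested genes. The genes of the bone and tooth matrix relatives of osteopontin, Ibsp, Dmp1, Dspp and Mepe, which lie beside Spp1 on chromosome 5, were near 0, with 17, 89, 30 and 2 counts over all libraries. Of 10 genes for enzymes that cut, link or phosphorylate osteopontin, among them thrombin (F2) and Fam20c, 3 passed the filter. Of these 3, 0 were called by either tool, against 0% to 1.79% of all genes in edgeR, and 0 had an unadjusted p under 0.05.

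Among 16 genes for transcription factors tied to Spp1, all tested, 1 was called in RMA intermediate, against 1.65% of all genes, and 1 in RMA-KR late, against 0.983%, in both cases Myc. In the other comparisons 0 were called, against 0% to 1.79% of all genes. There 2 to 5 had an unadjusted p under 0.05 and DESeq2 called 0. Myc was at 144, 178 and 171 CPM in RMA intermediate and 161, 153 and 158 in RMA-KR late, against 57.5 to 91.5 in control, with no overlap. It rose by 1.20 log2 units (SE 0.22; adjusted p = 0.00415 in edgeR) and by 1.13 (SE 0.22; adjusted p = 0.0102), and had an r of 0.76 with Spp1. In RMA late Myc passed the p threshold but not the fold threshold, at 0.84 log2 units (adjusted p = 0.0387 in edgeR). DESeq2 called Nfkb1, a subunit gene of NF-kappa B, besides Myc in RMA-KR late. Tbx21 was not called. Its fitted values against control were 0.03 (SE 0.19), -0.07 (SE 0.17), -0.45 (SE 0.19) and -0.74 (SE 0.19) log2 units in RMA intermediate, RMA-KR intermediate, RMA late and RMA-KR late. The part of Tbx21 in the Spp1 values was not tested. Runx3 had log2 fold changes between -0.38 and -0.03 in these 4 comparisons. Of the 9 genes of the IL-15 receptor and STAT5, 0 were called in any comparison by edgeR, against 0% to 1.79% of all genes, or by DESeq2. At most 2 had an unadjusted p under 0.05. The median r of the 9 with Spp1 was 0.26.

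Among 13 tested genes of other secreted products of NK cells, such as granzymes and chemokines, 1 was higher in RMA intermediate, against 1.65% of all genes, and 1 in RMA late, against 1.79%, in both cases Gzmb, the gene of granzyme B, by 1.44 log2 units (SE 0.30; adjusted p = 0.00834 in edgeR) and 1.18 (SE 0.30; adjusted p = 0.0293). In RMA-KR late, where Spp1 was highest, 0 of 13 were called by either tool, against 0.983% of all genes in edgeR, with 1 at an unadjusted p under 0.05, and Gzmb was at 1635, 2552 and 1889 CPM within the control range of 811 to 2887. The call of Gzmb in RMA late held in 2 of 7 fits without 1 library, and was lost without the 4 libraries described further on (adjusted p = 0.0635 in edgeR). The list's median log2 fold change was 0.56, 0.67 and 0.20 in RMA intermediate, RMA late and RMA-KR late, against -0.29, -0.18 and -0.18 over all tested genes. The 4 genes of innate sensing tied to osteopontin inside the cell had 0 calls by either tool, against 0% to 1.79% of all genes in edgeR. At most 2 had an unadjusted p under 0.05. The most abundant of the 4, Irf7, had an r of 0.67 with Spp1.

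Of the 12 other protein-coding genes whose lower coordinate, on either strand, lies within 500 kb of the start of Spp1, 6 passed the filter. In edgeR 0 were called in any of the 7 comparisons, against 0% to 1.79% of all genes. The nearest of the 6 was Pkd2, whose start lies 24332 bases downstream and which had 450 counts over all libraries. Nudt9, with 8433 counts, had log2 fold changes between -0.04 and 0.34 in the intermediate and late groups. Gm42793, a transcript model not yet backed by experiment, overlaps the start of Spp1 on the same strand (chr5:104435121-104436372), and it held 57 counts over all libraries against 40970 for Spp1. The union counting mode assigns reads that fall on exons of both to neither, so the Spp1 counts lack such reads.

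The libraries were not alike in other respects. The 4 libraries control 4 and RMA-KR intermediate 3, 4 and 5 had summed immediate early genes (12 genes, Junb the most abundant) of 1200 to 1307 CPM, against 4228 to 9130 CPM in the other 20, and their summed list of type 1 innate lymphoid cell markers was 211 to 370 CPM, against 28.4 to 95.9 in the others. Labels give no batch. Within these 4, Spp1 was 5.89 CPM in the control and 46.9 to 103 in the 3 RMA-KR libraries; within the other 20, it was 10.5 to 24.1 CPM in 3 controls and 86.0 and 49.0 in the remaining 2 RMA-KR intermediate libraries. In neither set did RMA-KR intermediate overlap with control, which was 1 library in the set of 4. Without the 4 libraries, the Spp1 log2 fold change in RMA-KR intermediate was 2.01, and r with Mki67 was 0.85 over 20 libraries. Without them, 23, 20 and 10 of the 34 proliferation genes were called in RMA intermediate, RMA late and RMA-KR late, where 211, 218 and 84 of all 17958 genes then tested were called. The list's medians were 3.24, 3.34 and 2.97, and the median in RMA-KR intermediate was 0.27. Itgb3 divided with these libraries, at 52.3 to 79.8 CPM in RMA-KR intermediate 3, 4 and 5 and at 11.7 and 5.22 in 1 and 2, and without the 4 libraries its log2 fold change was 3.06 in RMA intermediate, 2.93 in RMA late and 4.25 in RMA-KR late (adjusted p = 0.0158, 0.0186 and 0.00495 in edgeR). In RMA-KR intermediate it was 0.88 without them (adjusted p = 0.750 in edgeR) and 2.10 with them. Of the 11 immediate early genes tested, 1 was called in RMA-KR late, against 0.983% of all genes, namely Egr1, which DESeq2 also called. Egr1 was higher by 1.84 log2 units (SE 0.38, adjusted p = 0.0151 in edgeR). That call was lost without control 3, control 4 or RMA-KR late 3 (adjusted p = 0.0712, 0.0709 and 0.103 in edgeR). It held in the other fits that left out 1 library. Without the 4 libraries Egr1 was at 1.77 and not called (adjusted p = 0.0656 in edgeR). DESeq2 called Egr1 in RMA intermediate as well, at 1.07 log2 units.

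**Figure D5:**
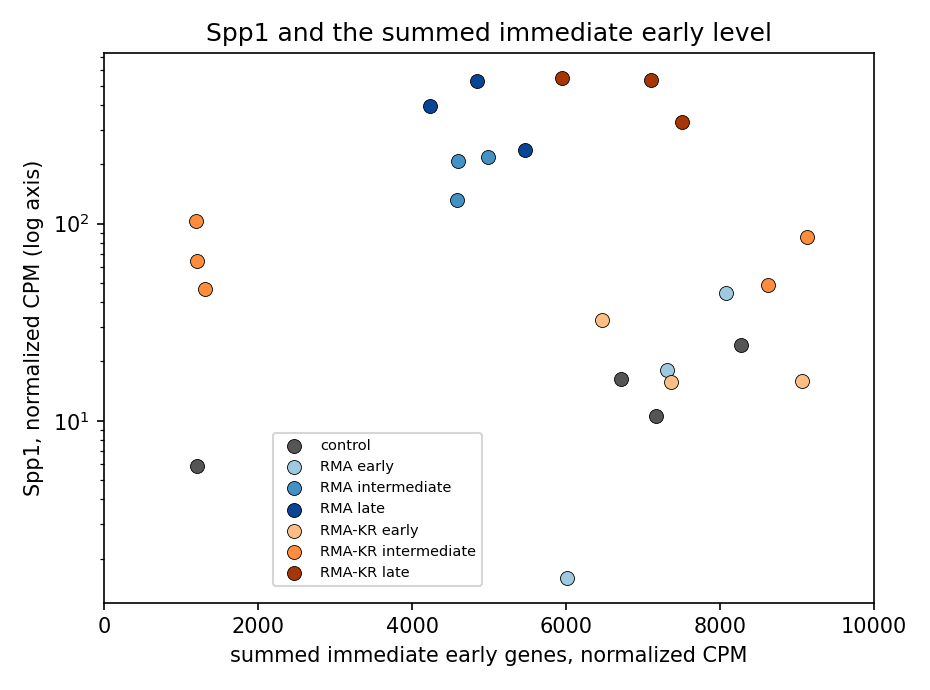
Normalized CPM of Spp1 (log axis) against the summed normalized CPM of 12 immediate early genes, 1 point per library, colored by group. The 4 libraries at the left, at 1200 to 1307 CPM, hold 1 control at 5.89 and 3 RMA-KR intermediate libraries at 46.9 to 103 CPM of Spp1.

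The 12 NK cell markers, Gzma the most abundant, summed to 22595 to 39921 CPM, and 0 of 12 were called in any comparison by edgeR, against 0% to 1.79% of all genes, or by DESeq2, with 1 to 7 at an unadjusted p under 0.05. Macrophages also make Spp1. Of 16 macrophage and monocyte markers, 8 passed the filter and 0 were called in edgeR, against 0% to 1.79% of all genes. From 0 to 3 had an unadjusted p under 0.05, and DESeq2 called 1, Cd68, in RMA-KR late. The median log2 fold change of the 8 was 1.54 in RMA-KR late, against -0.18 over all tested genes. The sum of the list, 807 to 1939 CPM, was 97.2% Ccr2, which NK cells also express, and was 12.3 to 83.3 CPM without it. The 8 markers that did not pass the filter, C1qa, C1qb and Fcgr1 among them, had 8 to 67 counts each over all 24 libraries. Of the 8 that passed, Cd68, Lyz2, Vcam1, Spic and Ccr2 had fitted values above control in RMA-KR late, and Csf1r, Hmox1 and Apoe had values below it. Those of Lyz2, Vcam1 and Spic came from 1 library each, with 6, 157 and 0, with 1, 0 and 35, and with 2, 0 and 48 counts in RMA-KR late 1, 2 and 3, and Csf1r had 0 counts in all 3. Ccr2, at 0.69 log2 units, passed the p threshold there but not the fold threshold (adjusted p = 0.0277 in edgeR). Cd68, the gene of a lysosomal protein abundant in macrophages, stood at 15.9, 11.3, 8.74 and 8.66 CPM in control and at 78.0, 59.4 and 36.2 CPM in RMA-KR late, with no overlap, and its 2.38 log2 units (SE 0.79) had an adjusted p of 0.179 in edgeR and 0.0385 in DESeq2. In RMA late, Cd68 had 327, 267 and 455 counts and a fitted 1.59 log2 units (SE 0.78), with an adjusted p of 0.360 in edgeR. Its r with Spp1 was 0.75 over 24 libraries and 0.81 over deviations from the group means, the latter 0.43 without RMA early 1. The sum was 1187, 1108, 958 and 1056 CPM in control, 818, 807 and 1083 in RMA early, 893, 1535 and 1429 in RMA-KR early, 1000, 1045 and 1002 in RMA intermediate, 1653, 1409 and 1333 in RMA late, 1085, 1369, 1446, 1200 and 1236 in RMA-KR intermediate, and 1786, 1603 and 1939 in RMA-KR late, with an r of 0.60 with Spp1. Of 7 markers of lipid-associated macrophages, a class rich in Spp1, 5 passed the filter, the sum was 98.4% Cd9, and without Cd9 it was at most 11.01 CPM. Trem2 had 16 counts over all libraries. Of 7 stroma and bone markers, 4 passed the filter; the sum was 98.8% Pecam1, an adhesion molecule of endothelium and leukocytes, and at most 8.90 CPM without it. Pecam1 rose in RMA intermediate, RMA late and RMA-KR late, by log2 fold changes of 1.08, 1.04 and 1.69 (adjusted p = 0.0275, 0.0336 and 0.00191 in edgeR), and had an r of 0.82 with Spp1. The calls in RMA intermediate and RMA late were lost in 7 of 7 fits without 1 library. In RMA-KR intermediate, Pecam1 stood at 226, 186, 216, 242 and 237 CPM, above the 106 to 128 CPM in control with no overlap, as Spp1 did, but was not called (0.91 log2 units, adjusted p = 0.497 in edgeR). Granulocyte markers summed to at most 17.2 CPM, dendritic cell markers to at most 56.0, erythroid markers to at most 5.75 and platelet markers to at most 30.4. B cell markers summed to 3.47 to 11.3 CPM in control and to 4.54, 19.7 and 17.3 CPM in RMA-KR late. The median log2 fold change of the 7 B cell markers there was -1.12. T cell markers, which RMA also carries, summed to 282 to 596 CPM with Trbc1 at 68.0% of it, and plasma cell markers to 376 to 733 CPM with Ighm at 67.5%. The T cell sum was 342 to 414 CPM in control and above it in RMA late, at 596, 504 and 468, and in RMA-KR late, at 506, 416 and 420, as it also was in 2 of 3 libraries of RMA-KR early, 4 of 5 of RMA-KR intermediate and 1 of 3 of RMA early. In RMA intermediate it was below control, at 329, 309 and 282. The median of the 9 tested T cell markers was 0.46 log2 units in RMA late and -0.40 in RMA-KR late. In each, edgeR called 0 of 9, against 1.79% and 0.983% of all genes, and DESeq2 also called 0. The plasma cell sum was 376 to 508 CPM in control and above it in RMA-KR late, at 705, 733 and 562, as it also was in 2 of 3 libraries of RMA-KR early and 2 of 5 of RMA-KR intermediate. In RMA-KR late the median of the 5 tested plasma cell markers was 1.63 log2 units. There edgeR called 0 of 5, against 0.983% of all genes, with 2 at an unadjusted p under 0.05, and DESeq2 called 1. The libraries RMA-KR late 1, 2 and 3 were uneven in Igkc (14, 1903 and 273 counts), Jchain (27, 252 and 143) and Irf4 (138, 281 and 0). They were more alike in Ighm (5429, 6078 and 3779) and Prdm1 (2305, 1902 and 1640). In RMA late the median of the 5 was -1.12, with 0 called by either tool, against 1.79% of all genes in edgeR. For RMA late against RMA-KR late it was -2.87, with 0 called by edgeR, against 0% of all genes, and 1 by DESeq2. Of the 5 Rae1 gene names of the transgene list, 2 were listed in the table, at no more than 6.05 CPM together. The part of these cells in the Spp1 values was not tested.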

How the data were processed

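The authors deposited a table of raw counts per gene, which they made by trimming reads with cutadapt 1.10, removing ribosomal reads with Bowtie2 2.2.8, aligning with STAR 2.5.3a and counting with HTSeq 0.6.1p1. They tested with DESeq2 1.16.1. The table's 48 other per-library columns (normalized values) and its 29 comparison columns of the authors (fold changes and p-values) were not used.

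From these counts, edgeR 4.0.16 (TMM, filterByExpr, robust quasi-likelihood, 1 mean per group over 24 libraries) tested 17097 genes with Benjamini-Hochberg adjustment; DESeq2 1.42.0 was an alternative. Spearman and Pearson correlations used log2 normalized CPM with a prior count of 2. The study describes the replicates of the control and late groups as mice, with 3 per group, whereas 4 control libraries were used here. Nothing is stated for the other groups, where the spread between samples behind p may be technical.

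The genes named were Spp1 and Mki67, members of fixed lists that were called (or the most abundant or least changed), the 10 genes with the highest r by either measure (1 is not reported here), and protein-coding genes within 500 kb of Spp1. Other genes (those called in RMA-KR intermediate, the lowest r, and list members that were not called) were named after their values were seen. Members and lists were chosen with earlier results of these data known.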

Additional observations from a re-analysis of the deposited data

Results flagged for a closer look

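Outlier tests on 25 series of values in the 2 groups with 4 or more libraries flagged 4 values, from 3 libraries, and by chance such a test flags about 1 in 20 groups. The summed bone and tooth matrix relatives of osteopontin stood at 2.95 CPM in RMA-KR intermediate 5. The summed transcription factors tied to Spp1 stood at 3792 CPM in control 4. The summed immediate early genes stood at 1201 CPM in control 4. The summed Rae1 genes stood at 0.316 CPM in control 3. The part of these values in the Spp1 results was not tested.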

How the results depend on the processing

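Spp1 stayed above control in both intermediate and both late groups under every setting. DESeq2 with shrinkage gave smaller log2 fold changes of 2.95 in RMA intermediate, 3.82 in RMA late and 4.07 in RMA-KR late. With 1 library left out, the log2 fold change ran from -0.49 to 1.17 in RMA early, 0.17 to 1.01 in RMA-KR early, 3.41 to 4.07 in RMA intermediate, 2.03 to 2.69 in RMA-KR intermediate, 4.47 to 5.14 in RMA late and 4.77 to 5.44 in RMA-KR late. It ran from -0.53 to -0.02 for RMA late against RMA-KR late.

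The r of Spp1 with Mki67 ran from 0.79 to 0.86 with 1 library left out. It was 0.66 within the libraries low in Mki67, 0.19 within those high in it, 0.75 without the 2 farthest libraries, and 0.39 over deviations without RMA early 1. These settings were chosen after seeing the data.

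Counts of genes called moved more, and the cause was not tested. RMA early went from 0 to 88 with no filter and 24 with DESeq2, and from 0 to 86 with 1 library left out. RMA-KR early went from 14 to 7 with DESeq2 size factors, 110 with no filter, 7 with only the 2 groups fitted, 2 without the 4 libraries low in immediate early genes (a setting added after seeing the data) and 99 with DESeq2, and ran from 0 to 11 with 1 library left out. RMA intermediate went from 282 to 477 with no filter, 762 with only the 2 groups and 520 with DESeq2, and ran from 166 to 226. RMA-KR intermediate went from 3 to 56 with no filter, 0 with only the 2 groups, 0 without the 4 libraries and 21 with DESeq2, and ran from 0 to 4. RMA late went from 306 to 472 with no filter, 573 with only the 2 groups and 529 with DESeq2, and ran from 127 to 457. RMA-KR late went from 168 to 394 with no filter, 84 without the 4 libraries and 359 with DESeq2, and ran from 71 to 152. RMA late against RMA-KR late went from 0 to 28 with no filter and 12 with DESeq2, and ran from 0 to 2.

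With the replicate number as a replicate block, 0 genes were called in RMA-KR early, 1 in RMA-KR intermediate and 100 in RMA-KR late. The numbers did not pair the libraries: deviations of libraries with the same number had a mean r of -0.013, 0.010 and -0.021 for numbers 1, 2 and 3, and 4 of 21 libraries were closest to their own number.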
